A study of Mus musculus with 8 samples.

Results

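Cacna1e, Rpgrip1, Opn3, Ccdc17, Ceacam16, Tmem26, Fcamr and Col5a3 are 8 of the 21878 genes in a table of read counts from mouse blood, and they were chosen because each had a lower value in every stressed animal than in every control animal. Peripheral blood was taken from 8 female C57BL/6 wild-type mice aged 6 to 8 weeks. The stress group (n = 4) was restrained for 6 hours in a ventilated tube without food or water, and the control group (n = 4) stayed in the cage, also without food or water. The blood was flash frozen, and RNA was sequenced as 1 library per sample. The numbers of the replicates name the samples of each group, and no pairing by number is given, so the samples were treated as unpaired. The study calls the controls littermates, but which mice share a litter is not given. Since the choice of the 8 genes rests on the difference between stress and control, their values in this contrast are a description: no p of it is given for them, and counts of how many of them a threshold calls are given without reading anything from them.

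The 8 genes belong to different families, and most are best known from tissues other than blood. Cacna1e encodes the pore-forming subunit of the R-type voltage-gated calcium channel of neurons and endocrine cells. Opn3 encodes a non-visual opsin, a light-sensitive G protein-coupled receptor, and Fcamr encodes a receptor for the constant part of IgA and IgM that is found on B cells, macrophages and follicular dendritic cells. Tmem26 encodes a membrane protein used as a marker of beige fat cells. Rpgrip1 encodes a scaffold that holds the RPGR protein at the connecting cilium of photoreceptors, and Ccdc17 encodes a coiled-coil protein. Ceacam16 is a secreted protein of the tectorial membrane in the inner ear, and Col5a3 is a chain of type V collagen, which regulates the assembly of collagen fibrils.

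The depth of the libraries differed between the groups. The total count was 31471145, 35098378, 39014775 and 31524196 in control replicates 1 to 4 and 27985919, 29655725, 25978683 and 28392759 in stress replicates 1 to 4. Haemoglobin genes took 51.9% to 63.8% of the counts in controls and 61.2% to 75.5% in stressed mice. Outside the haemoglobin genes, stress replicate 3 had the fewest counts (6352711) and control replicate 3 the most (18771951). Levels are therefore given as CPM, the count of a gene per library size with the library sizes adjusted by TMM, a method that takes most genes as unchanged. The median log2 fold change of the 11718 genes tested was -0.02 on this scale and -0.82 with the total count as the only scaling, so a value of 0 on the TMM scale stands for the typical gene. Depth and haemoglobin share move with the groups, and their part in the levels of the 8 genes was not tested.

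Promoters are shown for 4 of the genes: Cacna1e, which had the most counts, Rpgrip1, which had the widest gap between the groups, and Fcamr and Col5a3, which had the lowest stress levels relative to control. The RefSeq table of promoters (build GRCm38.p6) held 7 of the 8 genes, each with 250 bases before and 50 bases after the annotated start, and Ceacam16 was not among them. Capitals mark CpG dinucleotides, the sites at which mammalian DNA is methylated, and each sequence is written 5′ to 3′ on the strand of its gene. The Rpgrip1 window lies at chr14:52110653-52110952 on the plus strand, the Cacna1e window at chr1:154725871-154726170 on the minus strand, the Fcamr window at chr1:130800652-130800951 on the plus strand and the Col5a3 window at chr9:20815018-20815317 on the minus strand. The RefSeq start of Cacna1e lies 158581 bases inside the gene as GENCODE places it, so its window is not at the outer start of that gene, while the starts of the other 6 lie 0 to 199 bases inside.
Rpgrip1: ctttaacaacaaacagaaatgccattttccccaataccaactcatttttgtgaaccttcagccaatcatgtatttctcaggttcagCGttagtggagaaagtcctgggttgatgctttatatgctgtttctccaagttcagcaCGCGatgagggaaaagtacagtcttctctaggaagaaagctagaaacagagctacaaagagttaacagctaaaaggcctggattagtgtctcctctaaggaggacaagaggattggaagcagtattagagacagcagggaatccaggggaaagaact
Cacna1e: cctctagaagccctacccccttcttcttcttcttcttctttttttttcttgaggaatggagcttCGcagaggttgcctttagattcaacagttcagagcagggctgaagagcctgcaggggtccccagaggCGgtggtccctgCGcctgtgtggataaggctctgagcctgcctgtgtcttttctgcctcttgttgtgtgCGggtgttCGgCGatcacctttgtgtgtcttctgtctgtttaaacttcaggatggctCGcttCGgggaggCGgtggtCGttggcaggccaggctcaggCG
Fcamr: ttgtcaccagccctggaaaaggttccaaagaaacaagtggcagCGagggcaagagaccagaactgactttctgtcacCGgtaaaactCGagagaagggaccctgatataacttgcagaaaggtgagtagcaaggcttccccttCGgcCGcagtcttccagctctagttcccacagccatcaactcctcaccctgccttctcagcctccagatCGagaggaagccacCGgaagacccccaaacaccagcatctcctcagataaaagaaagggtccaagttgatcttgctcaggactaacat
Col5a3: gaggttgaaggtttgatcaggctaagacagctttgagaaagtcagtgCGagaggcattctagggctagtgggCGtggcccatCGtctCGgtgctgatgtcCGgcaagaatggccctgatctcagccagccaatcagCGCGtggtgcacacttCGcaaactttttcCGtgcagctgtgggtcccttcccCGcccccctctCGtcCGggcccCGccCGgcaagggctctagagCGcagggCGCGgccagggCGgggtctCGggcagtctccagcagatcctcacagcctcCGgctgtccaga

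The 4 windows differ in base composition. The Rpgrip1 window holds 3 CpG dinucleotides and 42.7% G and C, the Fcamr window 7 and 52.0%, the Cacna1e window 11 and 55.3%, and the Col5a3 window 20 and 63.3%. Over all 32851 promoters of this length the median was 7 CpG dinucleotides (quartiles 3 and 20) and 52.7% G and C (quartiles 45.7% and 61.7%). Of the other 3 members with a promoter, Opn3 had 28 CpG dinucleotides and 70.0% G and C, Tmem26 had 9 and 60.7%, and Ccdc17 had 5 and 48.3%. Rpgrip1 therefore lies below the lower quartile of G and C content, and Opn3 and Col5a3 lie above the upper one. On both strands, 4 motifs were searched in the 7 windows. The octamer ATGCAAAT, bound by B cell transcription factors, is in 1.74% of all promoters, the cAMP response element TGACGTCA in 1.79%, the PU.1 motif GAGGAAGT in 3.20% and the palindromic glucocorticoid response element in 0.00913%. In the windows of the members, 0 of 7 held any of the 4 motifs, which says only that these letters are not in these windows.

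Cacna1e had the most counts of the 8 genes. It had 598, 750, 1180 and 393 counts in control replicates 1 to 4 and 143, 106, 67 and 322 in stress replicates 1 to 4. On the TMM scale this is 16.2, 14.5, 17.0 and 12.4 CPM in control blood and 6.38, 4.92, 5.09 and 10.3 CPM in stress blood. The groups do not overlap, but stress replicate 4 lies closer to the control samples than to the other stress samples, and the lowest control sample was 1.20 times the highest stress sample. The mean was 15.0 ± 2.06 CPM (SD, n = 4) for the controls and 6.67 ± 2.51 CPM (SD, n = 4) for the stressed mice, or -1.15 as the log2 fold change (standard error 0.21). The gene lies at chr1:154390731-154884501 on the minus strand of GRCm38, and its 25228 exonic bases are shared with no other annotated gene.

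Opn3 had 73, 76, 113 and 57 counts in control replicates 1 to 4 and 19, 14, 8 and 30 counts in stress replicates 1 to 4. Its level was 1.72 ± 0.220 CPM (SD, n = 4) in controls and 0.766 ± 0.166 CPM (SD, n = 4) in stressed mice, or -1.13 as the log2 fold change (standard error 0.27). The values within each group lie close together, and the lowest control sample was 1.53 times the highest stress sample. Its position is chr1:175662421-175692776 on the minus strand.

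Fcamr had the widest relative spread in the stress group. It had 227, 294, 427 and 179 counts in control replicates 1 to 4 and 36, 46, 13 and 127 counts in stress replicates 1 to 4, or 1.61, 2.13, 0.987 and 4.06 CPM in the stress group. The 4 control samples were within 5.64 to 6.17 CPM, while stress replicates 3 and 4 lie at the ends of a range that spans a factor of about 4. The coefficient of variation was 4.91% in control blood and 60.5% in stress blood. The mean was 5.92 ± 0.291 CPM (SD, n = 4) for the controls and 2.20 ± 1.33 CPM (SD, n = 4) for the stressed mice, or -1.35 as the log2 fold change (standard error 0.30). Fcamr lies at chr1:130800902-130814740 on the plus strand and shares no exonic base with another gene.

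Tmem26 showed a similar contrast in spread. It had 78, 128, 151 and 75 counts in control replicates 1 to 4 and 36, 20, 4 and 35 counts in stress replicates 1 to 4. Stress replicate 3, with 4 counts, was the lowest, and stress replicate 1, at 1.61 CPM, was the closest to the control samples, which lay between 2.12 and 2.48 CPM. The coefficient of variation was 7.20% in controls and 54.5% in stressed mice, around means of 2.29 and 0.989 CPM and a log2 fold change of -1.14 (standard error 0.32). Tmem26 is located at chr10:68723646-68782650 on the plus strand and shares no exonic base with another gene.

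Rpgrip1 had the narrowest stress group next to Ceacam16 and the widest gap between the groups. It had 179, 252, 301 and 128 counts in control replicates 1 to 4 and 55, 43, 24 and 62 counts in stress replicates 1 to 4. On the TMM scale the control samples lay between 4.04 and 4.87 CPM and the stress samples between 1.82 and 2.45 CPM, so that the lowest control sample was 1.65 times the highest stress sample. The mean was 4.53 ± 0.411 CPM (SD, n = 4) in control blood and 2.06 ± 0.271 CPM (SD, n = 4) in stress blood, or -1.13 as the log2 fold change (standard error 0.17). Rpgrip1 is located at chr14:52110704-52163546 on the plus strand.

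Ccdc17, which encodes the coiled-coil protein, had 72, 113, 107 and 35 counts in control replicates 1 to 4 and 18, 12, 12 and 26 counts in stress replicates 1 to 4. Its level was 1.70 ± 0.476 CPM (SD, n = 4) for the controls and 0.776 ± 0.153 CPM (SD, n = 4) for the stressed mice, or -1.14 as the log2 fold change (standard error 0.30). Here the spread was in the control group, where replicate 4 (1.10 CPM) lay just above the highest stress sample (0.911 CPM in replicate 3). Its position is chr4:116596654-116600266 on the plus strand.

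Of the secreted and matrix proteins, Ceacam16 had 96, 106, 98 and 53 counts in control replicates 1 to 4 and 20, 18, 10 and 30 counts in stress replicates 1 to 4. Its 4 stress samples were within 0.759 to 0.960 CPM (coefficient of variation 9.91%), below control samples that ranged from 1.42 to 2.61 CPM, and the log2 fold change was -1.14 (standard error 0.28). Ceacam16 is located at chr7:19852097-19861299 on the minus strand. Col5a3 was the gene with the fewest counts, with 16, 38, 50 and 25 in control replicates 1 to 4 and 2, 6, 2 and 6 in stress replicates 1 to 4. Its mean was 0.670 ± 0.160 CPM (SD, n = 4) in controls and 0.178 ± 0.0792 CPM (SD, n = 4) in stressed mice, and its log2 fold change of -1.88 was the largest of the 8 in size and also had the largest standard error (0.47). Every stress value of Col5a3 rests on at most 6 reads, so the size of its difference is poorly determined. The gene lies at chr9:20770050-20815067 on the minus strand.

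**Figure D1:**
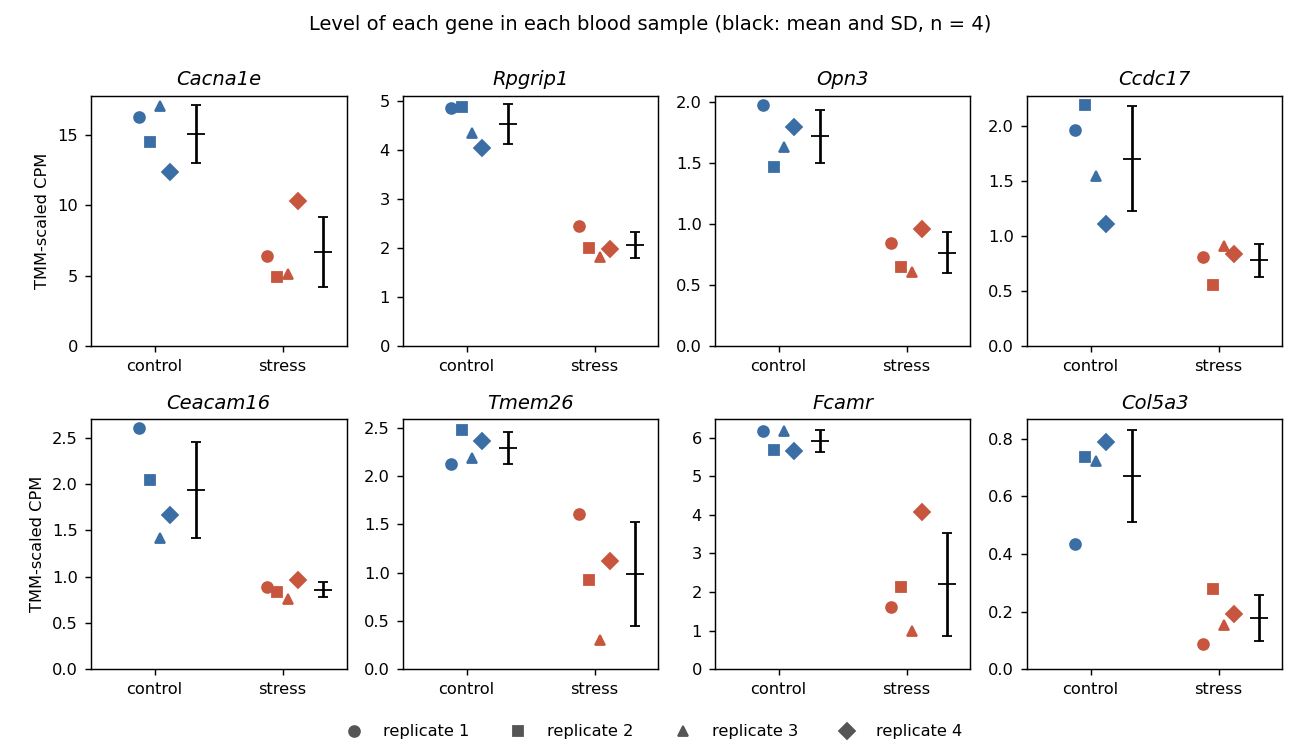
Each panel shows 1 gene, with the TMM-scaled CPM of the 4 control samples (blue) and the 4 stress samples (red), 1 symbol per replicate number, and the mean and SD of each group in black. In all 8 panels the groups are apart, as the choice of the genes requires; the stress values of Fcamr, Tmem26, Col5a3 and Cacna1e are spread widely for their mean and those of Rpgrip1 and Ceacam16 are close together.

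The samples that were high or low were partly the same from gene to gene. Within the stress group, replicate 4 was the highest sample for 4 of the 8 genes and the lowest for 0, and replicate 3 was the lowest for 5. These are also the stress libraries with the most (11007593) and the fewest (6352711) counts outside the haemoglobin genes. Over the 28 pairs of members, the Pearson r between their deviations from the group means over the 8 samples was above 0 in 19 pairs, with a median of 0.31. The highest was 0.77 between Cacna1e and Fcamr, both of which were highest in stress replicate 4, and the lowest was -0.62 between Rpgrip1 and Col5a3. These correlations are descriptions over samples that share a library and a scaling factor, and no p is given for them. The share of pairs of all genes tested with r above 0 is not given here, so nothing is read from the count of pairs.

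Levels between genes can be compared per length of their exons. The mean RPKM (CPM per 1000 exonic bases, over all annotated exons) in the control group was 3.10 ± 0.152 for Fcamr, 1.18 ± 0.317 for Ceacam16, 0.899 ± 0.115 for Opn3, 0.645 ± 0.181 for Ccdc17, 0.596 ± 0.0818 for Cacna1e, 0.433 ± 0.0311 for Tmem26, 0.373 ± 0.0338 for Rpgrip1 and 0.0984 ± 0.0234 for Col5a3 (SD, n = 4). Fcamr was above all others in every control sample, and Col5a3 below all others. Neighbours in between, such as Ceacam16 and Opn3, Opn3 and Ccdc17, and Ccdc17 and Cacna1e, overlapped in range, while Cacna1e and Tmem26 did not. The order of the means was the same in the stress group, from 1.15 RPKM for Fcamr to 0.0261 RPKM for Col5a3. Cacna1e, first by counts, has thus 4 members above it per length.

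How many genes the thresholds of the study call depends on the tool and on the filter. A gene was called lower when its log2 fold change was below -1 and its adjusted p below 0.01. With edgeR, 2 of the 11718 genes tested (0.0171%) were called lower, Cacna1e and Rpgrip1, against 198 called higher. Without a filter on low counts, edgeR called 4 of 15930 genes lower, 3 members among them. With DESeq2, the tool named in the methods of the study, also without this filter, 12 of 15930 genes (0.0753%) were called lower. These included all 8 members, and 307 genes were called higher. Every stress sample lay below every control sample for 8 of the 8 members and for 1157 of the 11718 genes tested (9.87%). Since the members were chosen on this contrast, nothing is read from these counts. All 8 members passed the filter of 10 counts in at least 4 samples, each with 10 counts in all 4 control samples. Opn3, Tmem26 and Col5a3 had fewer than 10 counts in some stress sample, and Col5a3 passed through the control group alone. The 8 members were also all called with total counts alone, as were 6.22% of all genes tested, and at an adjusted p below 0.05 (0.171%).

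The rule asks that the groups do not overlap, and some genes lay close to that limit on either side. Of the members, Cacna1e and Ccdc17 lay closest to it, with a lowest control sample 1.20 and 1.21 times the highest stress sample. Of the 77 genes with a log2 fold change below -1, the groups of 47 did not overlap and those of 30 did, and some of the 47 lay closer to the limit than any member, down to a ratio of 1.00. Just outside it were Mybl1, Serpinb7 and Hdac11, whose lowest control sample was 0.934, 0.934 and 0.928 times the highest stress sample, at log2 fold changes of -1.04, -1.51 and -1.01. The log2 fold changes of the members ranged from -1.88 in Col5a3 to -1.13 in Rpgrip1, and Cacna1e was number 45 of the 77 by steepness. The 10 other genes with the most negative log2 fold changes among those whose groups did not overlap were Gm2808, Terb1, Gm19345, Cage1, Sgol2a, Fbxw13, Gm32687, Il31ra, Zfp964 and Srms, from -2.54 in Gm2808 to -1.57 in Srms, and none had more than 9 counts in a stress sample.

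The other genes at the same places on the genome were not themselves chosen, and those with enough counts could be tested. Supt16, Chml and Gm19345 share exonic bases with members, so their counts may hold reads that entered the choice. Over all 11718 genes tested, 3.69% had an adjusted p below 0.05 with a lower level in the stress group and 10.4% with a higher one. Supt16, which encodes a subunit of the histone chaperone FACT, lies on the strand opposite to Rpgrip1 at chr14:52160414-52197416, and 1057 bases of the untranslated exonic sequence of Rpgrip1 (8.70% of its exonic bases) are also exonic in Supt16. Supt16 had 900, 1339, 1720 and 717 counts in control replicates 1 to 4 and 586, 473, 199 and 701 in stress replicates 1 to 4. Its log2 fold change was -0.19 (standard error 0.14, edgeR's quasi-likelihood test, adjusted p = 0.389), and the groups overlapped in CPM. Where reads of the 2 genes fall on shared bases, counting without strand cannot assign them, and whether strand was used is not given in the sources used here.

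A ratio of 2 counts in the same library does not depend on how libraries are scaled. Rpgrip1 had 0.199, 0.188, 0.175 and 0.179 counts per Supt16 count in control replicates 1 to 4 and 0.0939, 0.0909, 0.121 and 0.0884 in stress replicates 1 to 4. The ranges are apart, as for 1.94% of all genes tested per Supt16 count, and the mean ratio in the control group was 1.88 times that in the stress group. Hnrnpc and Chd8, the nearest genes on either side, had log2 fold changes of 0.28 (standard error 0.12, adjusted p = 0.123) and -0.42 (standard error 0.15, adjusted p = 0.0667) by edgeR's quasi-likelihood test. Rpgrip1 counts per Hnrnpc count and per Chd8 count were also lower in every stress sample than in every control sample, by mean ratios of 2.59 and 1.59, as were 26.7% and 0.307% of all genes tested.

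Opn3 shares 461 exonic bases (24.1%) with Chml, a gene on the same strand that encodes a Rab escort protein, and 367 of them are coding in Opn3. On the same strand, reads from the shared bases belong to neither gene alone, so the counts of both are uncertain. Chml had 222, 253, 440 and 172 counts in control replicates 1 to 4 and 115, 80, 35 and 158 counts in stress replicates 1 to 4, with a log2 fold change of -0.43 (standard error 0.19, edgeR, adjusted p = 0.149). Opn3 had 0.329, 0.300, 0.257 and 0.331 counts per Chml count in control replicates 1 to 4 and 0.165, 0.175, 0.229 and 0.190 in stress replicates 1 to 4. Here too the ranges are apart, as for 0.119% of all genes tested per Chml count, and the mean ratio in the control group was 1.60 times that in the stress group. The members were chosen on this contrast, so nothing is read from these ranges. Kmo, whose end lies 304 bases from the end of Opn3 on the other strand, was the only 1 of the 14 tested neighbours with an adjusted p below 0.05 (log2 fold change -0.50, standard error 0.15, edgeR, adjusted p = 0.0420), and its groups overlapped. Opn3 counts per Kmo count overlapped between the groups as well, at 0.0621 to 0.108 in control blood and 0.0400 to 0.0638 in stress blood. Kmo no longer passed with the replicate block or in some fits with a sample left out, and with DESeq2 Ier5, Gm19345 and AA986860 passed beside it. Gm19345 is among the 14 but shares exonic bases with the member Ceacam16, so nothing is read from its pass. Over all genes tested with edgeR, 3.69% had an adjusted p below 0.05 with a lower level.

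**Figure D2:**
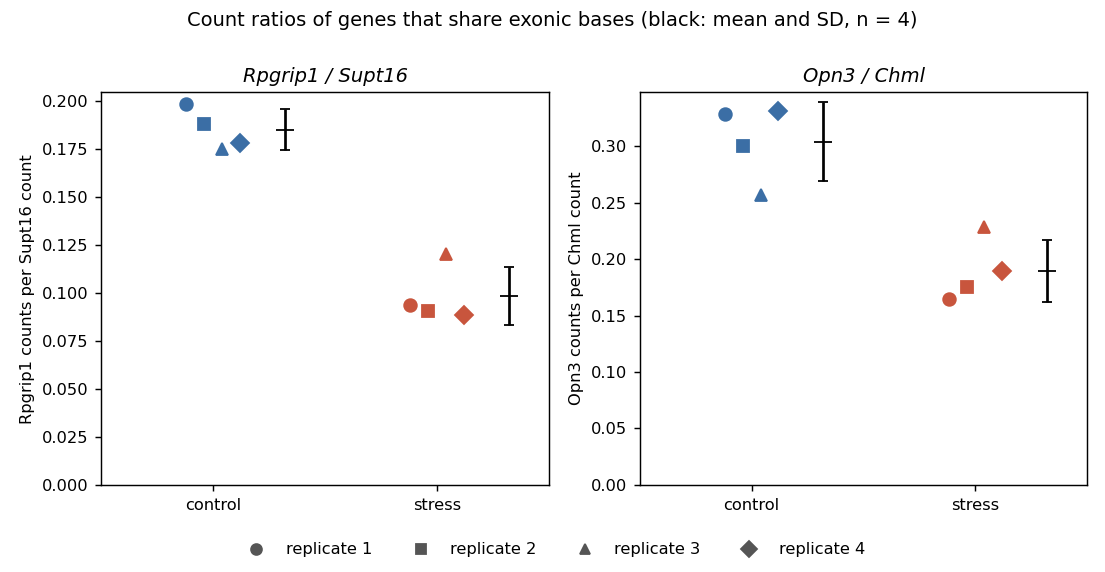
Counts of Rpgrip1 per count of Supt16 (left) and of Opn3 per count of Chml (right) in the 4 control samples (blue) and the 4 stress samples (red), with the mean and SD of each group in black. Both ratios are lower in every stress sample, with stress replicate 3 the highest of its group in each panel.

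For the other members, the overlapping genes had few counts or no row in the table. Ceacam16 shares 380 exonic bases (23.2%) with Gm19345 on the opposite strand. Gm19345 had at most 5 counts in a stress sample and a log2 fold change of -2.08 (standard error 0.71). It passed the filter through the control group alone, and 38.3% of its own exonic bases are shared with Ceacam16, so no p is given for it. The 872 bases (33.1%) that Ccdc17 shares with the noncoding gene C530005A16Rik on the opposite strand could not be followed, since that gene has no row in the table. Tmem26, Fcamr, Cacna1e and Col5a3 share no exonic base. Of the nearest genes of these members, Ier5 had a log2 fold change of 0.28 (standard error 0.10, edgeR, adjusted p = 0.0755), Gpbp1l1 of -0.21 (adjusted p = 0.140), Nasp of -0.02 (adjusted p = 0.936) and Bcl3 of 0.35 (adjusted p = 0.190). For Arid5b it was -0.21 (edgeR, adjusted p = 0.362), for Rhobtb1 -0.20 (adjusted p = 0.880), for AA986860 1.02 (adjusted p = 0.0658) and for Pigr, the receptor that carries IgA and IgM across epithelia, -0.21 (adjusted p = 0.858). Zfp648, Wdr64, Ceacam19, Olfm2 and Rdh8 had too few counts to be tested.

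The relatives of the members by family were followed in the same fit. Of 25 genes for other subunits of voltage-gated calcium channels, 10 could be tested, 6 had no count in any sample, and 1 had an adjusted p below 0.05 with a lower level, beside 3.69% of all genes tested. This was Cacna1i, a subunit of T-type channels, with a log2 fold change of -0.51 (standard error 0.14, edgeR, adjusted p = 0.0273). Cacna1d had a larger difference of -1.06 with overlapping groups (standard error 0.45, edgeR, adjusted p = 0.128), and Cacna1h had -0.52 (standard error 0.24, adjusted p = 0.161). The median of the 10 was -0.13, beside -0.02 over all genes tested.

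Of 20 genes of the ciliary transition zone and partners of RPGR, 15 were tested, and 1 had an adjusted p below 0.05 with a lower and 2 with a higher level, beside 3.69% and 10.4% of all genes tested. Mks1 fell by 0.84 on the log2 scale (standard error 0.19, edgeR, adjusted p = 0.0112), while Rp2 rose by 0.57 (standard error 0.12, adjusted p = 0.00877) and Arl3 by 0.65 (standard error 0.18, adjusted p = 0.0330). Rpgrip1l, the closest relative of Rpgrip1, had -0.16 (edgeR, adjusted p = 0.817) and Rpgr itself had -0.11 (adjusted p = 0.842). The directions in this group are therefore mixed, and with total counts alone Rp2 and Arl3 turned to differences in mean log2 CPM of -0.24 and -0.16, with overlapping groups.

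None of the 7 other opsin genes could be tested with edgeR, and 5 of them had no count in any sample. Among 14 other CEACAM genes, 7 had no count in any sample and 2 were tested, Ceacam1 with a log2 fold change of -0.02 (standard error 0.17, edgeR, adjusted p = 0.937) and Ceacam10 with 0.84 (standard error 0.45, adjusted p = 0.225). Among 10 other fibrillar collagen genes, 5 were tested, and 1 had an adjusted p below 0.05 with a higher level, beside 10.4% of all genes tested. This was Col1a2, which rose by 1.48 (standard error 0.33, edgeR, adjusted p = 0.0102), or by 0.73 with overlapping groups when total counts alone were used. Col5a1 and Col5a2, which encode the other chains of type V collagen in this list, had at most 8 and 11 counts in a sample and were not tested.

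Of the receptors for immunoglobulins, 13 of 16 in the table were tested. An adjusted p below 0.05 was reached by 2 with a lower and 2 with a higher level, beside 3.69% and 10.4% of all genes tested. Fcer2a, the low-affinity IgE receptor of B cells, fell by 0.72 (standard error 0.14, edgeR, adjusted p = 0.00445) and Fcrl1 also had an adjusted p below 0.05 with a lower level. The myeloid genes Fcgr3 and Fcer1g rose by 1.18 (standard error 0.16, edgeR, adjusted p = 0.00107) and 0.83 (standard error 0.15, adjusted p = 0.00298), but by 0.37 and 0.03 with total counts alone. Fcmr, the receptor for IgM of lymphocytes, had -0.43 (standard error 0.14, edgeR, adjusted p = 0.0587) with overlapping groups. In a list of 12 genes used by marginal zone and B-1 cells, 11 were tested, and 1 passed with a lower and 1 with a higher level, beside the same shares. Cr2 fell by 0.79 (standard error 0.14, edgeR, adjusted p = 0.00345). Cd9, which platelets also carry, rose by 0.92 (standard error 0.22, edgeR, adjusted p = 0.0145), or by 0.12 with total counts alone.

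Cell markers were measured in the same libraries, to set the levels of the 8 genes beside the makeup of the blood. In bulk samples, fewer cells of a type and less RNA per cell cannot be told apart. The markers of blood were all present: Alas2 of red cell precursors averaged 16108 CPM in the control group, Ppbp of platelets 499 CPM, Lyz2 of monocytes 273 CPM, Cd79a of B cells 218 CPM and Tcf7 of T cells 170.3 CPM. In the list of skin and muscle genes, Krt1 and Myh4 had no count in any sample, and the sum of all 10 was 2.14 to 2.41 CPM for the controls and 1.30 to 3.49 CPM for the stressed mice. The sum of each list was compared by a two-sided exact permutation test over the 70 assignments of samples, adjusted over 12 lists, for which 0.0286 is the smallest p and 0.0571 was the smallest adjusted p.

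On the TMM scale the B cell list was the only one whose sum was lower in every stress sample; with total counts alone those of NK cells and non-classical monocytes were too. It was 1531, 1861, 1868 and 1557 CPM in control replicates 1 to 4 and 1316, 1076, 1288 and 1367 CPM in stress replicates 1 to 4, a log2 difference of -0.43 (exact permutation test, p = 0.0286, adjusted p = 0.0571), or -1.24 with total counts alone (adjusted p = 0.114). Of its 20 genes, 20 were lower in the stress group (52.9% of all genes tested were), and 11 had an adjusted p below 0.05 in edgeR (3.69% of all genes tested with a lower level), among them Cd22, Blk, Fcer2a and Cr2. The most abundant genes, Cd79a and Cd79b, had log2 fold changes of -0.22 (standard error 0.15, edgeR, adjusted p = 0.345) and -0.22 (standard error 0.16, adjusted p = 0.360).

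The other lymphoid lists overlapped between the groups on the TMM scale. The study counted fewer T and NK cells in stressed mice, and how that count relates to these sums was not tested. The T cell list, with Tcf7 as its most abundant gene, summed to 840.5, 807, 869 and 831 CPM in control replicates 1 to 4 and 727, 915, 817 and 759.8 CPM in stress replicates 1 to 4 (log2 difference -0.06, exact permutation test, p = 0.429, or -0.87 with total counts alone, p = 0.0571). The NK cell list, led by Gzma, summed to 103, 114, 125 and 165 CPM in controls and 98.2, 96.1, 185 and 89.0 CPM in stressed mice (log2 difference -0.16, exact permutation test, p = 0.543, or -0.97 with total counts alone, p = 0.0286, adjusted p = 0.114), where stress replicate 3 stood far above the others. The plasma cell list, led by Irf4, summed to 60.0, 64.1, 59.1 and 58.2 CPM in control blood and 66.4, 57.5, 70.5 and 64.4 CPM in stress blood (exact permutation test, p = 0.257), but without Irf4 its sum was higher in every stress sample (log2 difference 0.29, exact permutation test, p = 0.0286, adjusted p = 0.0571). In these 3 lists 2 of the 39 tested genes had an adjusted p below 0.05 in edgeR, Klrk1 with a lower and Xbp1 with a higher level, beside 3.69% and 10.4% of all genes tested, and Xbp1 was at -0.14 with total counts alone.

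The lists of neutrophils, classical monocytes and platelets lay higher in the stress group. The neutrophil list, led by Csf3r, summed to 366, 316, 213 and 421 CPM in control replicates 1 to 4 and 719.9, 675, 731 and 989 CPM in stress replicates 1 to 4, and 16 of its 19 tested genes had an adjusted p below 0.05 with a higher level. The classical monocyte list, led by Lyz2, summed to 488, 394, 459 and 518 CPM for the controls and 1300.4, 751, 1141 and 1207 CPM for the stressed mice, with 8 of 13 genes higher at an adjusted p below 0.05. The platelet list, led by Ppbp, summed to 3100.2, 2187, 2097 and 3196 CPM in controls and 5305, 5357, 5484 and 5128 CPM in stressed mice, with 18 of 18 genes higher at an adjusted p below 0.05, where the share over all genes tested was 10.4%. All 3 sums were higher in every stress sample, by 1.27, 1.22 and 1.03 on the log2 scale (exact permutation test, p = 0.0286 and adjusted p = 0.0571 for each). With total counts alone these 3 sums overlapped between the groups, at log2 differences of 0.46, 0.41 and 0.22. The direction of the classical monocyte list differs from the flow cytometry of the study, which counted fewer monocytes in stressed mice. The cause of this difference was not tested.

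The smaller myeloid lists were less even. The eosinophil and basophil list, led by Gata2, summed to 15.9, 18.3, 17.2 and 17.5 CPM in control replicates 1 to 4 and 24.8, 20.5, 21.7 and 22.1 CPM in stress replicates 1 to 4, and without Gata2 its log2 difference turned from 0.37 to -0.25. The dendritic cell list, led by Ccr9, summed to 13.7, 12.3, 13.2 and 14.9 CPM in control blood and 15.7, 17.5, 20.1 and 18.4 CPM in stress blood (log2 difference 0.41, 0.90 without Ccr9 and -0.40 with total counts alone). The non-classical monocyte list, led by Ace, overlapped, with 111, 80.5, 84.1 and 135 CPM for the controls and 106, 63.9, 59.6 and 72.6 CPM for the stressed mice (log2 difference -0.44, exact permutation test, p = 0.143, or -1.25 with total counts alone). The erythroid list, led by Alas2, overlapped as well, with 32507, 20667, 14325 and 40004 CPM in controls and 52902, 46076, 68599 and 31689 CPM in stressed mice (log2 difference 0.95, exact permutation test, p = 0.0857, or 0.14 with total counts alone). In edgeR, 3 of the 10 non-classical monocyte genes had an adjusted p below 0.05 with a lower level (Ace, Eno3 and Cd300e) and 0 with a higher one. These counts were 1 and 2 of 7 tested genes for eosinophils and basophils, 0 and 3 of 7 for dendritic cells, and 0 and 1 of 16 for erythroid cells. Over all genes tested the shares were 3.69% and 10.4%. Apart from Krt1 and Myh4, no gene of the 12 lists that is in the table was at 0 in every sample.

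**Figure D3:**
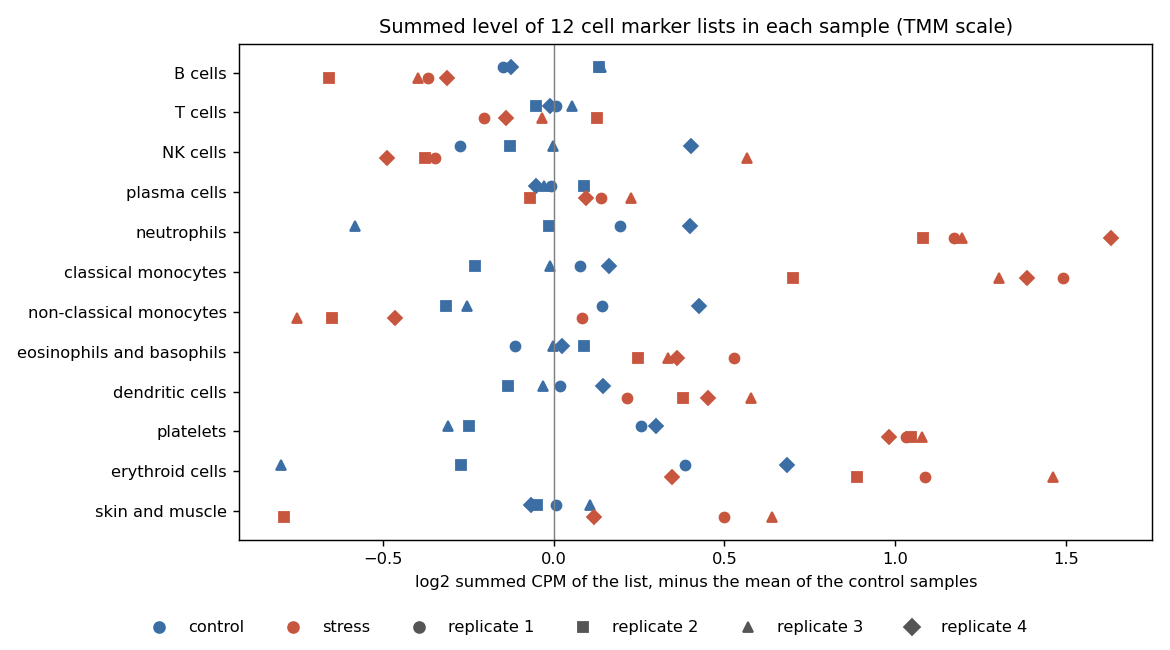
For each of 12 lists of cell markers, the log2 of the summed CPM in each sample is plotted relative to the mean of the control samples, with control samples in blue, stress samples in red and 1 symbol per replicate number. The B cell sums of the stress group lie to the left of all control samples, those of neutrophils, classical monocytes, eosinophils and basophils, dendritic cells and platelets lie to the right, and the other 6 lists overlap.

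Setting the counts of each member against the summed counts of a list gives its level per marker count, again with no scaling. Per 1000 B cell marker counts, Cacna1e had 10.6, 7.80, 9.12 and 7.96 counts in control replicates 1 to 4 and 4.85, 4.57, 3.95 and 7.54 in stress replicates 1 to 4, so that stress replicate 4 was just under the lowest control sample. Rpgrip1 had 3.18, 2.62, 2.33 and 2.59 in control blood and 1.86, 1.85, 1.41 and 1.45 in stress blood. Fcamr had 4.03, 3.06, 3.30 and 3.62 for the controls and 1.22, 1.98, 0.766 and 2.97 for the stressed mice. These 3 genes, and Opn3, Ccdc17 and Col5a3 with them, were lower per B cell marker count in every stress sample, as were 0.247% of all genes tested, while Ceacam16 and Tmem26 overlapped. The mean in the control group was 1.63 times (Rpgrip1, Ccdc17) to 2.69 times (Col5a3) that in the stress group. Without Cd79a in the list, 5 genes in place of 6 did not overlap.

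Over all 12 lists and 8 genes, 79 of the 96 ratios were lower in every stress sample than in every control sample, as were 27.2% of the ratios of all 11718 genes tested, from 0.0683% per non-classical monocyte count to 76.1% per neutrophil count. Of the 17 that overlapped, 12 were with NK cells and non-classical monocytes, for each of which only 2 of the 8 genes did not overlap, Opn3 and Col5a3 per NK cell count (0.162% of all genes tested) and Opn3 and Tmem26 per non-classical monocyte count (0.0683%). Without the most abundant gene of the list, 3 genes did not overlap per NK cell count, 5 per non-classical monocyte count and 3 in place of 6 per skin and muscle count. Per neutrophil marker count, the control mean was 5.40 times (Ceacam16) to 9.35 times (Col5a3) the stress mean, and per platelet marker count it was 4.58 to 7.97 times. Per non-classical monocyte marker count it was 1.65 to 2.65 times and per T cell marker count 2.08 to 3.71 times. No ratio was higher in every stress sample. Since the members were chosen on the same contrast, these ratios are a description from which nothing is read, and the part of changes in cell makeup in their levels was not tested.

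**Figure D4:**
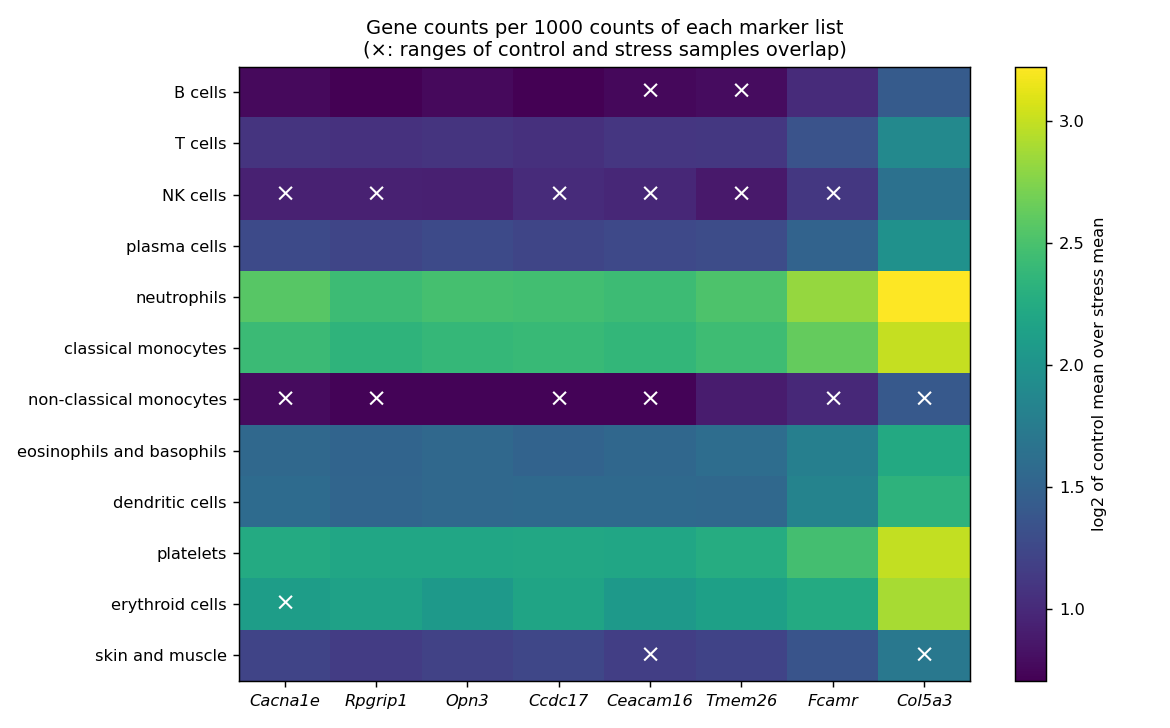
Rows are 12 lists of cell markers and columns the 8 genes, and the colour gives the log2 of the mean control value over the mean stress value of gene counts per 1000 marker counts. A cross marks ratios whose control and stress samples overlap, which are mostly in the rows of NK cells and non-classical monocytes, and the largest ratios are in the rows of neutrophils, classical monocytes and platelets.

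The choice of the genes used the value of every sample and limits how far the samples of a group can spread, but it would be the same if the samples of a group were exchanged. Which of them is high or low was thus not used, and this was related to the cell lists by permuting samples within groups, on the deviations from the group means. On the TMM scale, the Pearson r between a member and a list over the 8 samples was above 0 in 42 of 96 pairs, beside 49.4% of the pairs of all genes tested. With permutation of samples within groups, 3 pairs had an unadjusted p below 0.05 (6.22% of the pairs of all genes tested did) and 0 had an adjusted p below 0.05, where the smallest adjusted p was 0.333. The 3 pairs were Ccdc17 with plasma cells (Pearson r = 0.79, permutation p = 0.00347; Spearman rho = 0.76, permutation p = 0.0104), Rpgrip1 with dendritic cells (r = -0.89, permutation p = 0.0156; rho = -0.83, permutation p = 0.0347) and Fcamr with erythroid cells (r = -0.60, permutation p = 0.0156; rho = -0.69, permutation p = 0.0208). Without the 2 samples farthest from the median of the list, r was 0.78, -0.73 and -0.83 for these pairs. With the B cell list, r was 0.55 for Cacna1e (permutation p = 0.186; rho = 0.60, permutation p = 0.111) and 0.08 for Fcamr (permutation p = 0.823; rho = 0.05, permutation p = 0.941).

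These relations depended on the scaling. With total counts alone, r was above 0 in 87 of 96 pairs, 42 had an unadjusted p below 0.05 and 7 an adjusted p below 0.05. Most genes behaved alike on that scale: over the 12 lists and all 11718 genes tested, r was above 0 in 88.3% of pairs, 40.9% had an unadjusted p below 0.05, and 9.92% had a p of at most 0.00347, the largest p of the 7. The counts of the members are near these shares and are not a result about the members. On that scale Cacna1e had r = 0.94 with the B cell list (permutation p = 0.00174, adjusted p = 0.0417; Spearman rho = 0.98, permutation p = 0.00347) and 0.95 with the plasma cell list (permutation p = 0.00174, adjusted p = 0.0417; rho = 0.98, permutation p = 0.00174). The smallest p that the 576 permutations allow is 0.00174. Without the 2 farthest samples, r was 0.87 and 0.92 for these pairs. Rpgrip1 with the eosinophil and basophil list had r = 0.96 and Fcamr with the dendritic cell list r = 0.94, each with a permutation p of 0.00174, an adjusted p of 0.0417 and rho = 0.98 (permutation p = 0.00347), and r without the 2 farthest samples was 0.92 and 0.94. On this scale the share of counts taken by haemoglobin, which varied within the groups, enters every level, and its part in these relations was not tested.

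**Figure D5:**
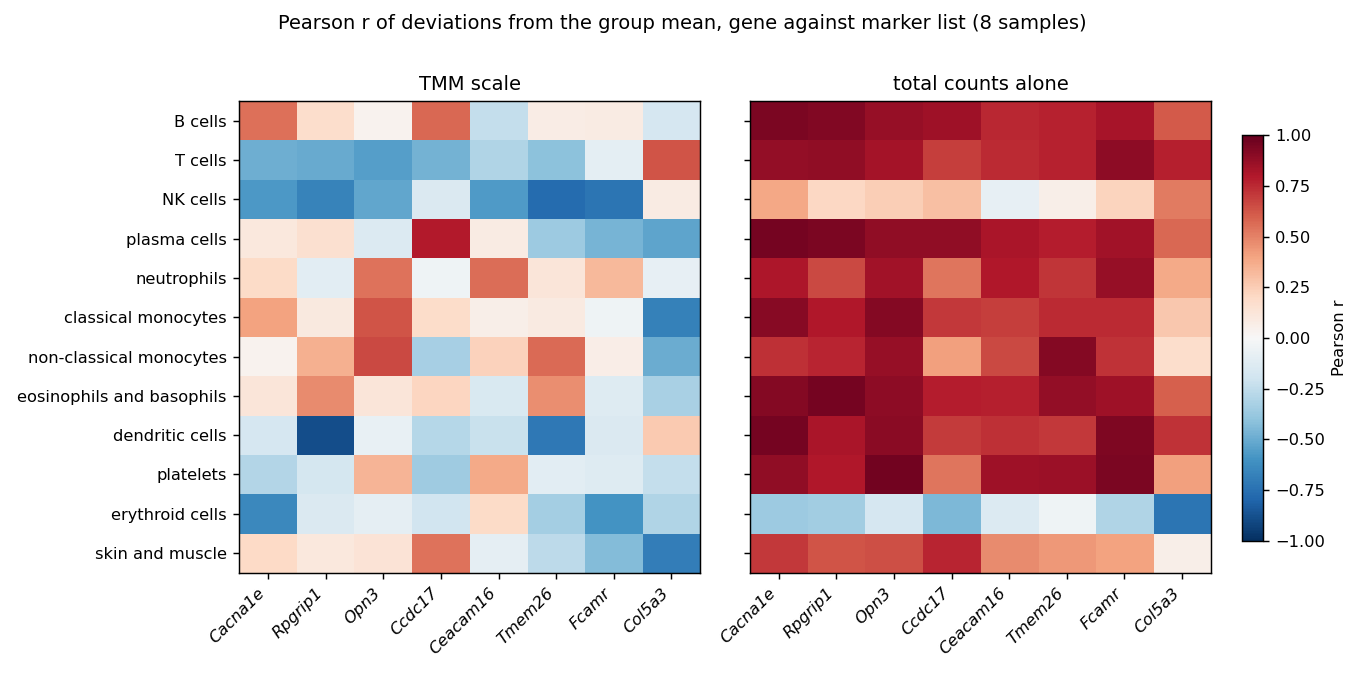
Pearson r over the 8 samples between the deviations from the group mean of each gene (columns, log2 CPM) and of the summed CPM of each marker list (rows), with TMM scaling on the left and total counts alone on the right. Both signs occur on the left, where r is above 0 in 42 of 96 pairs, and nearly all pairs outside the erythroid row are positive on the right, where r is above 0 in 87 of 96 pairs.

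The genes most like each member within the groups were sought among 10309 genes with a mean of at least 1 CPM, by the Pearson r of their deviations over the 8 samples. Hdac7, a histone deacetylase of lymphocytes and endothelium, was the closest to Cacna1e (r = 0.99), followed by Exoc1 and Zfp839 (both r = 0.98). The closest to Fcamr were Cand2, Fam73b and Sik3 (each r = 0.99), to Tmem26 Nf1, Gpd2 and Cpne3 (each r = 0.99), and to Opn3 Dcaf10 (r = 0.99), Il13ra1 and Kiz (each r = 0.97). Among those close to Rpgrip1 were 2700049A03Rik (r = 0.96) and Elac2 (r = 0.95). The closest to Ccdc17 were Zfp324 (r = 0.98), 3110043O21Rik and Idh2 (both r = 0.95), to Ceacam16 Rab5a, Fastkd5 and Nsun6 (each r = 0.94), and to Col5a3 Sqle (r = 0.97), Caskin2 (r = 0.96) and Telo2 (r = 0.95). With so many candidates and 8 samples a high r is usual: the best r of each gene tested had a median of 0.983, and the members' best r ranged from 0.945 to 0.993. Of the genes named here, only Exoc1 was lower in every stress sample than in every control sample on the TMM scale (log2 fold change -0.52, standard error 0.13, edgeR, adjusted p = 0.0212). With total counts alone its groups overlapped, and Nf1 and Nsun6 were lower in every stress sample. Hdac7 also had an adjusted p below 0.05 with a lower level, but overlapping groups (log2 fold change -0.38, standard error 0.12, edgeR, adjusted p = 0.0481). Il13ra1 rose by 1.30 on the log2 scale (standard error 0.15, edgeR, adjusted p = 0.000768), or by 0.46 with total counts alone. Rab5a was higher in every stress sample (log2 fold change 0.30, standard error 0.10, edgeR, adjusted p = 0.0617), but at -0.51 with overlapping groups with total counts alone.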

How the data were processed

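The authors deposited raw counts per gene symbol, as whole numbers without normalization, for 4 control and 4 stress samples. The submitters' processing notes name HISAT2, featureCounts and mm10; the annotation, filters and the use of strand are not given in the sources used here. Overlapping genes are therefore uncertain. Gene positions came from GENCODE M21 (GRCm38), which held 20665 of the 21878 symbols, and promoters from RefSeq.

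Of the 21878 genes, 5948 had no count, and 11718 passed a filter of 10 counts in at least 4 samples and were tested in R 4.3.3 with edgeR 4.0.16 (TMM, robust quasi-likelihood test, Benjamini-Hochberg adjustment over all genes tested). Ratios, sums of marker lists, exact permutation tests and correlations used Python 3.11.15 with scipy 1.17.1. The scripts were tested on simulated data. Alternatives were other scalings, haemoglobin genes left out, other filters and thresholds, DESeq2 1.42.0, limma-voom (limma 3.58.1), a replicate block, lists without their most abundant gene and leaving out each sample.

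The members and lists were chosen with earlier results of these data known. The genes named are the members, their overlapping and nearest genes, the called genes and up to 3 with the smallest p of each family list, abundant genes of the cell lists, the closest genes by correlation, the 10 other steepest falls, and the nearest genes outside the threshold. Other named genes of the cell and family lists were chosen after their values were seen. The p-values set a difference or a relation against the spread between these samples and do not measure that spread.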

Additional observations from a re-analysis of the deposited data

Results flagged for a closer look

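In 2 of the 80 groups of 4 values examined (members, neighbours, marker lists, library totals and ratios), 1 sample stood apart from the other 3 by more than Dixon's 95% critical value; chance gives about 1 in 20 groups. The summed NK cell markers were 185 CPM in stress replicate 3 against 98.2 CPM in the next sample, a gap of 0.903 of the whole range. Rpgrip1 counts per Supt16 count were 0.121 in the same sample against 0.0939 in the next, a gap of 0.832 of the range, and still below every control sample. Stress replicate 3 also had the fewest counts outside the haemoglobin genes (6352711), with 24 counts of Rpgrip1.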

How the results depend on the processing

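The number of genes called lower was 2 with edgeR and TMM, 729 with total counts alone (14 called higher, against 198), 4 with the upper quartile, 4 without a filter, 12 with DESeq2, 20 at an adjusted p below 0.05 and 1 to 8 when a sample was left out (8 without stress replicate 4, 5 without control replicate 4, 4 without stress replicate 1, 1 without any other control). Members called numbered 2, then 3 of the 4 genes called with the upper quartile, 3 of 4 without a filter and 3 of 3 with limma-voom (11718 genes tested). They numbered 8 with total counts, DESeq2 or the looser p, and 1 to 3 with a sample left out. Nothing is read from these counts of members, which were chosen on this contrast. The DESeq2 fit also had no filter on low counts. With the replicate block, 1 gene and 1 member were called and 0 neighbours passed. Same-numbered samples had correlations from -0.16 to 0.06, but so few values cannot settle whether the numbers pair them. All 8 members lay below under each setting in which they were tested. The choice of the genes makes this likely, so nothing is read from it. Of the members, 5 were tested with 10 counts in all samples and 7 without any 1 control sample. The log2 fold changes of the members were -2.66 (Col5a3) to -1.86 (Opn3) with total counts alone, in place of -1.88 to -1.13. The share of genes tested with every stress sample below was 9.87%, 23.5% with total counts and 11.0% to 15.5% with a sample left out. The neighbours past an adjusted p of 0.05 numbered 1, then 8 (total counts), 2 (upper quartile, stricter filter, limma-voom), 4 (DESeq2, Gm19345 among them) and 0 to 2 (sample left out). Nothing is read from Gm19345, which shares exonic bases with Ceacam16. With total counts the log2 fold changes of Ier5, Hnrnpc and Bcl3 turned to -0.52, -0.54 and -0.41, and the list differences of plasma cells, eosinophils and basophils, dendritic cells, and skin and muscle to -0.71, -0.44, -0.40 and -0.69; 3 lists in place of 6 did not overlap, and 7 within-group relations in place of 0 passed, a share near that of all genes. Without the most abundant gene, eosinophils and basophils turned to -0.25 and skin and muscle to -0.23, and plasma cells no longer overlapped (0.29 in place of 0.098); dendritic cells went from 0.41 to 0.90. With a sample left out, Nasp ranged from -0.045 to 0.051, Rhobtb1 from -0.87 to 0.26, Pigr from -0.54 to 0.25 and skin and muscle from -0.058 to 0.42. The NK cell difference was -0.40 without stress replicate 3 and -0.027 without control replicate 4. With the mean of log2(CPM + 1) in place of the sum, eosinophils and basophils were at 0.061 and overlapped, and plasma cells were at 0.017. The members kept their directions, from which nothing is read, since they were chosen on this contrast. The other neighbours and list sums kept theirs as well, while single genes of the lists also turned with total counts. Causes of the shifts above were not tested. Depth limits Col5a3 most, with 2 to 6 counts per stress sample.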
